A study of Canis lupus familiaris with 10 samples.

Results

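TRGC2, TRGC3 and TRGC8 are constant genes of the canine T cell receptor gamma chain, and they are 3 of the 800 genes measured by the nCounter Canine IO Panel. They were chosen by name, as the gamma constant genes of the panel, to be set beside the negative probes and CD3E in each tumour, with their values at both tumour stages already known. Their stage difference is therefore given as a description, with its error and with no p. The samples were formalin-fixed, paraffin-embedded (FFPE) canine cutaneous histiocytomas (CCH) of privately owned dogs, 1 tumour per dog. Early CCH (n = 5) are group 1 of the Cockerell and Slauson scheme and late CCH (n = 5) are group 3, which is enriched in lymphocytes. The early tumours came from 2 French Bulldogs, a Goldendoodle, a Terrier and a Boxer of 0.5 to 5.0 years, with age and sex not stated for the Terrier. The late tumours came from a Rottweiler, a Beagle, a Pug, a Bullterrier and a Jack Russell Terrier of 1.5 to 9.0 years. No treatment is given in the labels of either group, and the labels mark all 10 samples as re-analyses of samples deposited before. RNA came from scrolls of whole tumour cross sections with adjacent tissue removed, so that fewer cells of a type and less RNA per cell cannot be told apart.

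A T cell carries either an alpha and beta chain or a gamma and delta chain as its antigen receptor, and each pair is held at the cell surface by the CD3 chains. A gamma chain is made when a variable and a joining segment are rearranged next to a constant gene, and in the dog each constant gene lies in a cassette with variable and joining segments of its own. Gamma genes are also rearranged in many T cells that later use alpha and beta chains, so that a gamma transcript does not by itself identify a gamma delta T cell. Skin is a known site of gamma delta T cells in several species. Late CCH is marked by lymphocytes that enter the tumour before it regresses. No probe or transcript sequence of the 3 genes was available here, and none of the 3 symbols matched the RefSeq gene table of a German Shepherd assembly used here. How far a probe reads near-identical gamma constant genes is therefore unknown, and levels of different probes are not compared with each other as amounts of RNA.

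Values are normalized counts, which are barcode counts multiplied by a single factor per sample, and the factor was recovered to give back whole barcode counts. Barcode counts summed to 484696 to 823763 in early and 945399 to 1253083 in late tumours. Background was the mean plus 2 SD of the 8 negative probes, which have no target. It lay between 21.8 and 38.2 normalized counts in early and between 19.2 and 26.9 in late tumours. According to the sample sheet of the study, all early tumours were run on a single cartridge and all late tumours on another, and cartridge and stage cannot be told apart. The share of RNA fragments above the DV200 length limit was 64.5% to 71.2% in early and 71.2% to 75.8% in late tumours. CD207, which encodes langerin, the defining marker of Langerhans cells, had 27.4 ± 8.06 normalized counts in early and 16.1 ± 5.64 in late tumours (SD, n = 5 each) and was above background in 1 of 5 tumours of each stage. The other 9 measured Langerhans and dendritic cell markers were above background in all tumours.

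TRGC2 was above background in all 10 tumours. In early CCH it had 36.0 normalized counts in early 1, 195 in early 2, 962 in early 3, 56.0 in early 4 and 60.6 in early 5. In late CCH it had 1898 in late 1, 222 in late 2, 358 in late 3, 464 in late 4 and 297 in late 5. Thus 4 of 5 early tumours lay below every late tumour, but early 3 exceeded all late tumours other than late 1. The low early values rested on few molecules. Early 1, early 4 and early 5 had 34, 34 and 32 barcode counts, which was 1.65, 1.59 and 1.71 times background. The 34 counts have an exact 95% Poisson interval of 23.5 to 47.5, whereas the 1530 counts of late 1 have an interval of 1454 to 1609. Such intervals cover counting error only.

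**Figure D1:**
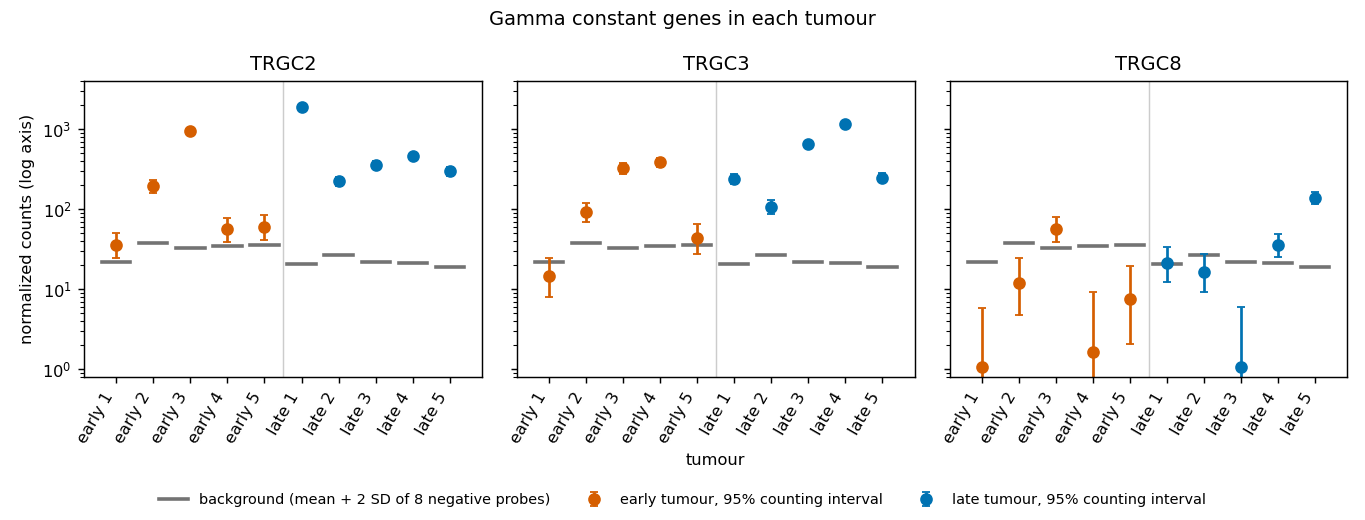
Normalized counts (log axis) of TRGC2, TRGC3 and TRGC8 in each of the 5 early and 5 late tumours. Points are single tumours with exact 95% Poisson counting intervals, cut at the lower edge of the axis where they reach it, and grey bars are the background of that tumour. TRGC2 peaks in late 1 at 1898, TRGC3 in late 4 at 1152 and TRGC8 in late 5 at 139.

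TRGC3 was above background in 9 of 10 tumours. It had 14.8 normalized counts in early 1, 91.6 in early 2, 325 in early 3, 384 in early 4 and 43.6 in early 5. Early 1 was below its background with 14 barcode counts, and early 5 was at 1.23 times its own background with 23. In late CCH it had 242 in late 1, 106 in late 2, 661 in late 3, 1152 in late 4 and 247 in late 5. Early 3 and early 4 exceeded the late median of 247, while late 3 and late 4 exceeded every early tumour.

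TRGC8 was above background in 1 of 5 early and 3 of 5 late tumours. Its normalized counts were 1.06 in early 1, 11.9 in early 2, 56.9 in early 3, 1.65 in early 4 and 7.58 in early 5. In late CCH they were 21.1 in late 1, 16.6 in late 2, 1.08 in late 3, 35.3 in late 4 and 139 in late 5. Only late 5, with 129 barcode counts or 7.27 times background, was well clear of it. Early 3 (31 counts, 1.75 times background) and late 4 (38 counts, 1.68 times) were next, and late 1 (17 counts, 1.03 times) was at the limit.

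In early 1, early 4 and late 3 TRGC8 was listed at exactly 1 barcode count, below all 8 negative probes of the same tumour. Over the whole panel, 27 gene values lay at 1 barcode count when rounded to the nearest whole number, 18 at 2 to 4 counts, 72 at 5 to 7 and 0 at zero. In late 4, where 1 barcode count is worth 0.929 normalized counts, the 4 values rounded to 1 count were listed as 1.00 and are not whole counts within 0.0051. Whether a value of 1 is a measured count or a replacement made during normalization is not given in the sources used here. No fold between single tumours is drawn against these 3 values.

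The mean log2 level was lower in early than in late CCH for each gene. The stages overlapped for all 3, as they did for most tested genes, of which 24.6% did not overlap. The early minus late difference was -1.95 (SE 1.01, n = 5 per stage) for TRGC2, with a 95% interval of -4.27 to 0.37. For TRGC3 it was -1.85 (SE 1.06), with an interval of -4.28 to 0.59. For TRGC8 it was -1.38 (SE 1.31), and -0.26 (SE 0.39) once all values were raised to the highest background of the 10 tumours, and -0.69 without late 5. With DV200 as a covariate the differences were -1.05 (SE 1.58) for TRGC2, -1.02 (SE 1.67) for TRGC3 and -2.64 (SE 2.04) for TRGC8. All 3 genes passed the filter on low values, a mean of at least 20 normalized counts, and the median difference over all 761 tested genes was -0.18.

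The other genes were tested for the stage difference with limma over all 761 genes. A threshold of 0.05 on the p adjusted by Benjamini and Hochberg (BH) was passed by 35.7% of them, 27.3% higher in late and 8.41% higher in early CCH. The Benjamini-Yekutieli (BY) adjustment with a 2-fold limit, the thresholds of the study, was passed by 11.2%. The study itself found no gene passing them in its nCounter data of these stages. It used the test of the nSolver Advanced Analysis plug-in and not limma, so the 2 outcomes come from different tests.

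The remaining T cell receptor genes of the panel were higher in late CCH. The study describes group 1 by the absence of lymphocytes and group 3 by their infiltration into the tumour. Higher levels of T cell genes in late CCH therefore go with the staging itself. The calls here and for the signalling genes below describe the stages and are no independent result. All 6 measured genes of the receptor complex passed the BH threshold higher in late CCH, with a median log2 difference of -2.94. They were the alpha and beta constant genes TRAC and TRBC and the CD3 chains CD3D, CD3E, CD3G and CD247. TRAC had a mean of 955 ± 211 normalized counts (SD, n = 5) in late CCH against 205 ± 192 (SD, n = 5) in early CCH, a log2 difference of -2.88 (SE 0.70, limma BH adjusted p = 0.0113). CD3E, the epsilon chain, had 5236 ± 918 (SD, n = 5) against 1305 ± 1416 (SD, n = 5), a difference of -3.18 (SE 1.00). No p is printed for CD3E, which was named beforehand as the gene to set the members beside. The 6 genes did not overlap between the stages. CD247, the zeta chain, was the single gene of the 6 that also passed the BY and 2-fold thresholds, and it was above background in 2 of 5 early and 5 of 5 late tumours. With DV200 as a covariate 0 of the 6 passed the BH threshold and 1 had an unadjusted p under 0.05 in limma, and 3 passed without early 5, without late 1 or without late 4.

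Of the co-receptors and signalling molecules around the receptor, 13 of 14 tested genes passed the BH threshold higher in late CCH, with a median of -2.73. They ranged from CD6 (-3.23), a surface co-receptor of T cells, to FYN (-1.31), a kinase of the receptor. PTPRC, the pan-leukocyte antigen CD45, had -0.32 and did not pass. With DV200 as a covariate 1 of the 14 passed in limma, and 6 had an unadjusted p under 0.05. ZAP70 was below the level filter and was not tested.

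Genes that are often linked to gamma delta or innate-like T cells had calls in both directions. Of 11 tested genes, 4 rose in late and 1 rose in early CCH, beside shares of 27.3% and 8.41% over all tested genes, and the median was -0.67. EOMES, a transcription factor of cytotoxic lymphocytes, had the lowest log2 difference (-3.32, SE 0.65, limma BH adjusted p = 0.00412). CCR6, a chemokine receptor of interleukin 17 producing T cells and of dendritic and B cells, was the gene that rose in early CCH (1.74, SE 0.46, limma BH adjusted p = 0.0153). The interleukin 7 axis, which is needed for rearrangement of the gamma genes in the thymus, had 5 of 7 genes higher in late CCH, where 27.3% of all tested genes were, and a median of -0.63. Its extremes were IL2RG (-2.22, SE 0.25, limma BH adjusted p = 6.6e-04), the shared gamma chain of cytokine receptors, and IL7R, with 0.66 and no call. The cytokine gene IL7 had 0.34 and no call either. The calls were IL2RG, JAK1, JAK3, STAT5A and STAT5B, and thus neither interleukin 7 nor its own receptor gene. The delta constant gene TRDC was not among the genes analysed here.

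Calls were also made among markers of other cell types, and their counts stand beside 27.3% of all tested genes higher in late and 8.41% higher in early CCH. The lists share genes with the gamma delta list, whose called genes KLRD1 and KLRK1 are also natural killer cell markers and whose called gene BLK is also a B cell marker. Of 7 tested natural killer cell markers 3 rose in late CCH, and the summed level of the list was 493 to 1362 normalized counts in early and 1423 to 4382 in late tumours. Of its defining markers, NCR1 was above background in 1 of 5 early and 5 of 5 late tumours. NCAM1 was above background in 1 of 5 and 3 of 5, but its mean was 27.3 in early and 22.4 in late tumours. Its log2 difference was 0.25 with no call, and mean background was 32.6 normalized counts in early and 21.9 in late tumours. KLRF1 (0.11), NCR3 (0.20) and KLRB1 (-0.47) were not called either. Of 10 B cell markers 7 rose in late CCH, with sums of 2393 to 3755 in early and 2255 to 11556 in late tumours, and the defining marker MS4A1 was above background in 1 of 5 early and 5 of 5 late tumours. Of 10 Langerhans and dendritic cell markers 3 rose in early CCH, namely the growth factor receptor FLT3 (2.49), the IgE receptor chain FCER1A (2.44) and the costimulatory molecule CD86 (0.97). The maturation marker CD83 (-1.30) and the transcription factor IRF8 (-1.43) rose in late CCH, and the summed level of the list was 7056 to 13679 normalized counts in early and 6559 to 10389 in late tumours. The part of these cells in the gamma gene levels was not tested.

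Set against CD3E, TRGC2 and TRGC3 varied between tumours of both stages. TRGC2 amounted to 85.0 barcode counts per 100 CD3E counts in early 1, 27.3 in early 2, 28.3 in early 3, 2.68 in early 4 and 22.1 in early 5. In late CCH it was 30.9 in late 1, 4.42 in late 2, 9.30 in late 3, 7.72 in late 4 and 5.76 in late 5. All late tumours were therefore within the wide early range, and early 4 was below every late tumour. The value of early 1 rested on 34 counts of TRGC2 and 40 of CD3E. These ratios compare tumours for a given pair of probes and are not ratios of molecules.

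TRGC3 amounted to 35.0 counts per 100 CD3E counts in early 1, 12.8 in early 2, 9.55 in early 3, 18.4 in early 4 and 15.9 in early 5. In late CCH it was 3.94 in late 1, 2.11 in late 2, 17.1 in late 3, 19.2 in late 4 and 4.79 in late 5. Late 1, late 2 and late 5 were below all early tumours, whereas late 3 and late 4 were within the early range. The upper end of that range was early 1, where TRGC3 was not above background, and the next highest early value of 18.4 was below that of late 4. Between the lowest and the highest early tumour the ratio to CD3E differed 3.66-fold for TRGC3, 4.21-fold for TRAC and 4.47-fold for TRBC, and 31.7-fold for TRGC2. Early 1, with 40 CD3E counts, was the highest for each of these genes. The remaining early tumours ran from 9.55 to 18.4 per 100 CD3E for TRGC3 and from 13.7 to 23.4 for TRAC. They ran from 73.3 to 151 for TRBC and from 2.68 to 28.3 for TRGC2. The log2 ratio of TRGC3 to CD3E was higher in early CCH by 1.33 (SE 0.70, n = 5 per stage), with a 95% interval of -0.28 to 2.94, and that of TRGC2 by 1.23 (SE 0.94), with an interval of -0.95 to 3.40. Against TRAC the differences were 1.04 (SE 0.61) and 0.93 (SE 0.82). Single tumours moved these values, since TRGC2 against CD3E was 0.72 without early 1 and 1.96 without early 4, TRGC2 against TRAC was 1.56 without early 4, and TRGC3 against TRAC was 0.63 without late 2. After the mean of the negative probes was subtracted, the difference of TRGC3 against CD3E was 0.87 (SE 0.68), and its levels per 100 CD3E ranged from 7.84 to 17.6 in early and from 1.83 to 19.0 in late tumours.

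**Figure D2:**
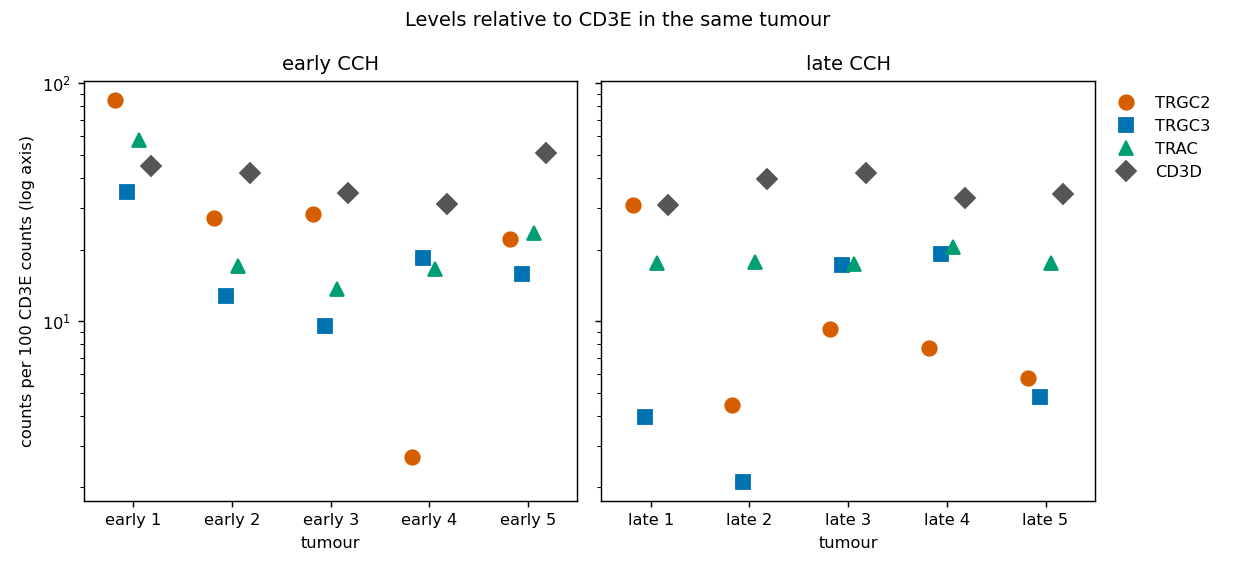
Barcode counts of TRGC2, TRGC3, TRAC and CD3D per 100 CD3E counts of the same tumour (log axis), for 5 early (left) and 5 late (right) tumours, with a symbol per gene and tumour. In late tumours TRAC stays between 17.4 and 20.5 and CD3D between 30.9 and 41.9, while TRGC2 covers 4.42 to 30.9 (to 9.30 without late 1) and TRGC3 covers 2.11 to 19.2.

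Among late tumours TRGC3 varied more than TRAC, TRBC and the CD3 chains, whereas the spread of TRGC2 rested on late 1. TRGC2 differed 8.54-fold and TRGC3 10.8-fold between the lowest and the highest late tumour, against 1.83-fold for TRAC, 2.08-fold for TRBC, 1.59-fold for CD3E and 1.23-fold for CD3D. Without late 1 the TRGC2 values differed 2.09-fold, against 1.83-fold for TRAC and 1.63-fold for TRBC over the same 4 tumours. TRGC3 still differed 4.76-fold without late 2 and 6.22-fold without late 4. On the log2 scale the SD over late tumours was 1.20 for TRGC2 and 1.35 for TRGC3, compared with 0.33 for TRAC, 0.27 for CD3E and a median of 0.38 over all tested genes (n = 5 each). By this SD, TRGC3 ranked 22 and TRGC2 ranked 34 of 761 genes, whereas TRAC ranked 442 and CD3E 524. Without late 1 the SD of TRGC2 was 0.45 and its rank 298, against an SD of 0.36 for TRAC, while that of TRGC3 was at least 1.07 whichever late tumour was left out. The counting error of the late values was 0.074 for TRGC2 and 0.089 for TRGC3 on the same scale. TRGC8 ranked 5, with an SD of 2.20, and 73 with values raised to the highest background (SD 0.82), and its SD was 1.34 without late 3, where it was listed at 1 count. The difference in spread was not tested, because the members were chosen with their values known.

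The same pattern was seen relative to CD3E. The log2 ratio to CD3E had an SD over the 5 late tumours of 0.10 for TRAC, 0.14 for CD3G, 0.15 for TRBC, 0.19 for CD3D and 0.45 for CD247, and of 1.08 for TRGC2 and 1.39 for TRGC3. Without late 1 it was 0.47 for TRGC2, 0.47 for CD247 and 1.52 for TRGC3, and without late 3 that of CD247 was 0.18. In early CCH these SDs were 0.83 for TRAC, 0.67 for CD3G, 0.76 for TRBC, 0.29 for CD3D, 1.53 for CD247, 1.81 for TRGC2 and 0.72 for TRGC3, with CD247 above background in 2 of 5 early tumours. The early SDs of TRAC, CD3G and TRBC rested largely on early 1, with 40 CD3E counts. Per 100 CD3E it had 57.5 TRAC counts (13.7 to 23.4 in the remaining early tumours), 52.5 CD3G counts (16.9 to 28.3) and 327.5 TRBC counts (73.3 to 151). In early CCH the SD of the log2 level itself was 1.90 for TRGC2, 1.94 for TRGC3 and 1.73 for TRAC, with CD3E at 2.51 and ranging 80.4-fold from 42.3 in early 1 to 3402 in early 3. That range rested on early 1, since the next lowest CD3E value was 275 in early 5.

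**Figure D3:**
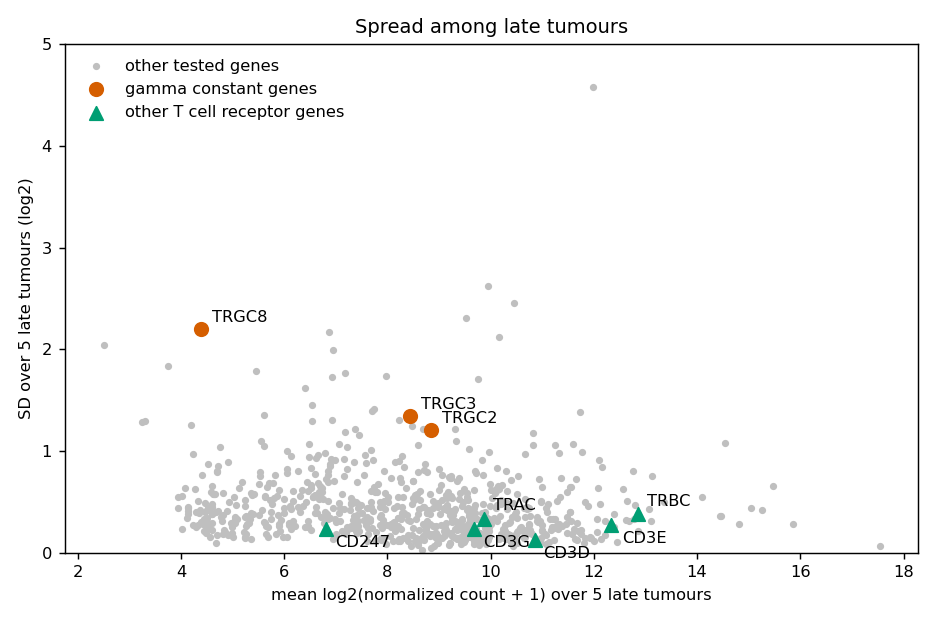
SD over the 5 late tumours against the mean level in them, both on the scale of log2(normalized count + 1), with a point for each of the 761 tested genes. TRGC2 (1.20, or 0.45 without late 1), TRGC3 (1.35) and TRGC8 (2.20) lie above the 6 other T cell receptor genes, which lie at 0.13 to 0.39.

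The gamma genes did not peak in the same tumour. Among late tumours TRGC2 was highest in late 1, TRGC3 in late 4 and TRGC8 in late 5. Among early tumours TRGC2 and TRGC8 were highest in early 3 and TRGC3 in early 4. The normalized count of TRGC2 divided by that of TRGC3 was 2.43 in early 1, 2.13 in early 2, 2.96 in early 3, 0.146 in early 4 and 1.39 in early 5. It was 7.85 in late 1, 2.09 in late 2, 0.542 in late 3, 0.403 in late 4 and 1.20 in late 5. The ratio was thus highest in late 1 and lowest in early 4, and in early 1 it rested on a TRGC3 value below background. It serves to compare tumours and does not rank the 2 probes within a tumour. The log2 ratio had an early minus late difference of -0.10 (SE 1.10, n = 5 per stage) and a 95% interval of -2.63 to 2.42. That interval is too wide to tell whether the ratio differs between the stages.

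**Figure D4:**
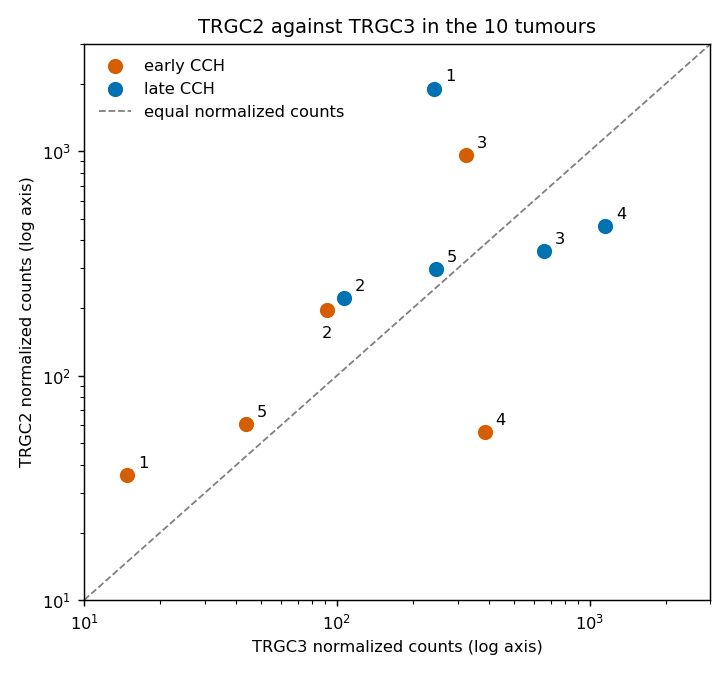
TRGC2 against TRGC3 in normalized counts (both axes log), with a point per tumour, numbered by replicate within its stage. The dashed line marks equal normalized counts and is a guide for the eye. Late 1 and early 4 lie farthest from it, with ratios of 7.85 and 0.146.

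Genes with the most similar pattern were named by the Pearson correlation of log2 deviations from the stage mean over the 10 tumours, as a description. For TRGC2 they were CNP (r = 0.89), an enzyme of myelin, BAX, which promotes apoptosis, the lymphocyte receptor SLAMF6, the T cell kinase TXK and EOMES (r = 0.78). For TRGC3 they were IGHM (r = 0.93), the heavy chain of immunoglobulin M, the T cell receptor adaptor TRAT1, the cytokine receptor IL6ST, the viral RNA sensor DDX58 and CD247 (r = 0.88). For TRGC8 they were IFNG (r = 0.89), which encodes interferon gamma, the ubiquitin gene UBB, the complement inhibitor SERPING1, the cytokine signalling inhibitor CISH and ANKRD22 (r = 0.80). No gene stood on more than 1 of these lists. Between the members themselves r was 0.44 for TRGC2 and TRGC3, 0.53 for TRGC2 and TRGC8 and 0.15 for TRGC3 and TRGC8. IGHM and IFNG stayed in the first 5 in all 10 repeats that each left out a tumour, whereas CD247 did so in 1 and EOMES in 2. With all values raised to the highest background of the 10 tumours, 3 of the 5 genes of TRGC2, 2 of TRGC3 and 2 of TRGC8 stayed in the first 5. The pattern of TRGC8 rested on values that were not above background in 6 of 10 tumours, and with that floor r was 0.70 for IFNG, 0.80 for UBB, 0.51 for CISH, 0.43 for ANKRD22 and 0.26 for SERPING1. All values share the scaling factor of their sample. By the same measure the genes most like CD3E were CD3G (r = 0.995) and CD3D (r = 0.994), and TRAC ranked 4, TRBC 6 and CD247 35 (r = 0.92), while TRGC3 ranked 78 (r = 0.80), TRGC2 154 (r = 0.62) and TRGC8 223 (r = 0.45). The log2 SD of CD3E was 2.51 in early and 0.27 in late tumours, so these ranks mostly describe the early tumours.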

How the data were processed

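Total RNA of 10 FFPE tumours was hybridised to the panel by the authors, who used nSolver 4.0 for scaling, first to positive controls and then to housekeeping genes. The deposited values are a normalized signal on a linear scale, with the control probes left unscaled. Background subtraction is not stated in the sources used here. Each gene value was divided by the recovered step of its sample, which gave whole numbers within 0.0051 for at least 99.4% of genes. These barcode counts served for background, counting error and ratios, and no count model was run.

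limma 3.58.1 in R 4.3.3 (lmFit, eBayes with an intensity trend) was run on log2(normalized count + 1) of all 10 samples with late CCH as baseline and no covariate. Genes with a mean of at least 20 were kept, 761 of 800. The added 1 shrinks the differences of genes with few counts. Differences of the members and their ratios, with SE and 95% interval, came from an ordinary linear model with the same design and carry no p. The fit was tested on simulated data. P-values measure the spread between tumours of different dogs.

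The members, the gene lists and the tests were chosen with earlier results of these data known. Named genes are the members, the measured receptor complex genes, the extremes of the gamma delta and interleukin 7 lists, and the 5 genes most like each member. Other genes were named after their values were seen. Langerhans and dendritic, B cell, natural killer and keratinocyte markers were counted as well. No keratinocyte marker of 4 tested was called. Leaving out late tumours for the spread, the background floor for the most similar genes and the log2 scale for values far from the others were added after seeing the data. Other alternatives covered pseudocount, filter, scaling, background, covariates, blocks and leaving out each sample. Figures were drawn with matplotlib 3.10.9.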

Additional observations from a re-analysis of the deposited data

Results flagged for a closer look

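Among 28 groups of 5 tumours checked for a value far from the others, 8 were found on the linear scale, all at the high end of their group. For normally distributed values chance gives about 1 in 20 groups (5%), but these values are skewed, and on the log2 scale 1 of the 28 groups passed the same limit, the ratio of TRGC2 to TRGC3 in early tumours (0.749), where early 4 had 0.146 and the remaining tumours had 1.39 to 2.96. The groups share samples and genes and are not independent. The gap to the nearest tumour is given as a share of the whole range of the group.

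Early 3 had 962 normalized counts of TRGC2, and the remaining early tumours had 36.0 to 195 (0.828). Late 1 had 1898, and the remaining late tumours had 222 to 464 (0.856). Late 1 also stood apart in TRGC2 per 100 CD3E counts, with 30.9 against 4.42 to 9.30 (0.816), in TRGC2 per 100 TRAC counts, with 176 against 25.0 to 53.4 (0.812), and in the ratio of TRGC2 to TRGC3, with 7.85 against 0.403 to 2.09 (0.773). Early 4 had 110 TRGC3 counts per 100 TRAC counts, and the remaining early tumours had 60.9 to 75.0 (0.715). The 60.9 was early 1, where TRGC3 was below background. After subtraction of the negative probe mean early 4 had 111 and the remaining early tumours had 29.4 to 70.2. TRGC8 was 56.9 in early 3 against 1.06 to 11.9 (0.806) and 139 in late 5 against 1.08 to 35.3 (0.753). The cause of these values was not tested.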

How the results depend on the processing

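Under the 18 alternatives run for them, the early minus late differences of TRGC2, TRGC3 and TRGC8 kept their direction. So did those of the ratios of TRGC2 and TRGC3 to CD3E and TRAC. Each value moved by less than the SD between tumours, but that limit is loose. It was 1.59 for TRGC2, 1.67 for TRGC3 and 2.07 for TRGC8, beside differences of -1.95, -1.85 and -1.38. A value could therefore lose most of its size and stay within the limit. When each tumour was left out in turn, the difference ranged from -2.70 to -1.44 for TRGC2, from -2.35 to -1.20 for TRGC3 and from -2.21 to -0.69 for TRGC8. The label of late 5 gives another DV200 than the RNA quality sheet of the study, and the label was used. The difference in the ratio of TRGC2 to TRGC3 changed sign, with 0.66 without early 4, 0.53 without late 1, 0.06 without late 2, 0.07 under quantile scaling and 0.13 after subtraction of the negative probes. The median over all tested genes moved from -0.18 to 0.21 under geometric mean or quantile scaling and to -0.55 under positive control scaling, where TRGC2 had -1.56, -1.37 and -2.32.

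With DV200 as a covariate limma passed 0 of 6 receptor complex genes, 1 of 14 signalling genes and 45 of 761 tested genes at the BH threshold, against 6, 13 and 272 without it. With the BY adjustment and 2-fold limit the counts were 1, 6 and 85. Without each tumour in turn they ranged from 3 to 6, 12 to 13 and 211 to 269. With the RNA extraction batch, matched to the samples through breed, age and sex in the sample sheet, as a random block, 321 genes passed. The consensus correlation within batches was -0.14, and with a negative value this count cannot be read as corrected for batch. The replicate numbers only count the tumours of a stage, since same-numbered deviations correlated between -0.20 and 0.16. With a replicate block the counts were 6, 13 and 228, and the differences of the members kept their values, with SE 1.22 for TRGC2, 0.64 for TRGC3 and 1.67 for TRGC8. TRGC8 was not above background in 6 of 10 tumours.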
